A study of Mus musculus with 15 samples.

Results

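A CpG is the same 5′ to 3′ on both strands of DNA, so each CpG carries 2 cytosines that can be methylated, one on the forward (F) strand and one on the reverse (R) strand, 1 base further on. The CpGs described here are the autosomal ones at which both cytosines had a coverage of at least 10 reads in every one of 15 libraries. They numbered 332379 of the 1907292 autosomal CpGs listed on any strand in any library (17.4%), and at 1050188 others 1 strand was listed in every library but the other was not. The rule used coverage and position and no methylation level.

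The libraries came from whole lung DNA of 15 mice, read by bisulfite sequencing of a reduced representation of the genome, in a standard and an enhanced form, which cut DNA with an enzyme and sequence the CpG-rich fragments. The labels give 7 mice as wild-type litter mates (3 male, 4 female) and 8 as transgenic mice heterozygous for Ctcf (4 male, 4 female), and the series title names genetic disruption of Ctcf as its subject. How the allele was made is not given in the sources used here. All mice, the wild-type ones included, had been given urethane, a carcinogen that induces lung tumours, once at day 14 (1 mg/g), and were 46 to 55 weeks old. Total coverage per library ran from 217363415 to 302342776 reads over cytosines. Lung tissue of such mice is a mixture of cells, so a shift in the mix of cells and a shift of methylation within cells cannot be told apart. The mouse is the replicate throughout, and errors are SD over libraries unless stated.

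Methylation of a CpG is normally symmetric. When DNA is copied, the new strand starts without methyl groups, UHRF1 recognises the hemimethylated CpG, and the methyltransferase DNMT1 completes it. CTCF, a zinc finger protein that anchors chromatin loops and insulators, can bind DNA in a way that depends on methylation, and loci such as the imprinting control regions carry methylation on 1 parental copy only. The enzyme usually used in this assay, MspI, cuts within the sequence CCGG whether or not its CpG is methylated, and the cut ends are filled in with cytosines supplied in the reaction, which carry no methyl group, before the fragments are sequenced. The enzyme used for these libraries, and whether reads were trimmed for filled-in bases, is not given in the sources used here.

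In promoter windows, where sequence could be read, the widest strand differences lay at pairs of CCGG, so such pairs are printed first, from RefSeq promoter sequences of GRCm38 (mm10; 250 bases before to 50 after each start), on the plus strand. The capitals mark CCGG, the MspI site, whose CpG is the one measured, except at the left of Hsf5. There the CpG measured is the first cg of the sequence, in lowercase. The 6 pairs with the widest strand differences among those of named genes 46 to 50 bases apart, 1 per gene, were those of Sycp1 (chr3:102936147-102936198), Ttn (chr2:76982564-76982616), Naa11 (chr5:97392350-97392402), Ccdc152 (chr15:3303578-3303630), Acrbp (chr6:125049677-125049729) and Kcne4 (chr1:78816851-78816904).
Sycp1: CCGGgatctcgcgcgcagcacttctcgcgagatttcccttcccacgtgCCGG
Ttn: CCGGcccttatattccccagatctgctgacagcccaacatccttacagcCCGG
Naa11: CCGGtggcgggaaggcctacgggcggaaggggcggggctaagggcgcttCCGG
Ccdc152: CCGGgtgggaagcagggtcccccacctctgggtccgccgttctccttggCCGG
Acrbp: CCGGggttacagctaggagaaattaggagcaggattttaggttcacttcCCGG
Kcne4: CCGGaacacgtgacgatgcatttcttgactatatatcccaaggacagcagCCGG
For comparison, the next sequences are from among the most methylated promoter pairs of other kinds, namely 2 whose MspI sites lay further apart, at Hormad1 (chr3:95559501-95559561) and Ddx4 (chr13:112652350-112652405), 1 whose sites lay closer, at Fgf6 (chr6:127015363-127015400), and 1 pair at 47 bases with only 1 of its CpGs in a site, at Hsf5 (chr11:87616928-87616978).
Hormad1: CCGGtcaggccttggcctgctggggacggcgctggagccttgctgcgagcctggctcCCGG
Ddx4: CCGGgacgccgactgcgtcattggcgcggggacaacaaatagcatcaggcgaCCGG
Fgf6: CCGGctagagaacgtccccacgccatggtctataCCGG
Hsf5: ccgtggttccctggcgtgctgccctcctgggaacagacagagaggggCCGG

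Of the 15 libraries, 2 were at odds with their labels, and group names below remain as labelled, so that each genotype value over 15 libraries includes both. Wild-type replicate 2, a male by label, listed 300 Y-chromosome cytosines and had a mean X level of 50.5%, where the 7 other libraries labelled female listed 271 to 326 with 49.8% to 52.5% and the 6 other libraries labelled male 1915 to 2055 with 38.8% to 39.9%. Heterozygous replicate 5, a female by label, listed 1985 with 39.9%. Reads at 8 cytosines of Ctcf past its promoter also followed this, scaled to 10⁶ reads per library, with 2.91 in wild-type replicate 2 and 4.79 in heterozygous replicate 5. The other wild-type libraries had 5.06 to 5.89 and the other heterozygous ones 1.64 to 3.20. The animal numbers of both differ between the sample title and the name of the deposited table. The table of wild-type replicate 2 has the number titled heterozygous replicate 5, and the table of the latter has the number titled wild-type replicate 3. Whether libraries or names were exchanged was not tested. Results by genotype are given with all 15 libraries and with the other 13.

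CpGs read on both strands sat near genes and were mostly unmethylated. Of them 59.5% lay within 1 kb of an end of a gene, 31.1% in a gene body and 9.48% between genes, against 41.7%, 39.6% and 18.8% of the CpGs with only 1 strand listed in every library. Their mean level per library was 18.99% to 20.3%, against 38.7% to 40.6% for that strand of the latter. Averaged over both strands and all libraries, 245421 of them (73.8%) were under 20%, 43377 (13.1%) between 20% and 80% and 43581 (13.1%) over 80%. Median coverage per library was 120 to 165 reads. The mean level of the 8 heterozygous libraries was 19.7% ± 0.504 (SD) and that of the 7 wild-type ones 19.5% ± 0.341 (SD), which did not differ beyond the spread between mice (exact two-sided permutation p = 0.247, and p = 0.219 over 13 libraries). For lung genes, both-strand CpGs within 1 kb of either end of the gene were taken. The 23 taken for Sftpc, which encodes surfactant protein C of alveolar type 2 cells, averaged 0.201% on F and 0.173% on R. They lay at chromosome 14, 70519951 to 70520515, and whether they belong to Sftpc or to a neighbouring gene was not tested. For Ager, a receptor of alveolar type 1 cells, 2 were at 63.9% and 67.3%. For Hopx, a homeodomain protein of the same cells, 2 were at 65.6% and 64.2%. Foxj1 had 15 at 2.99% and 3.53%, and Nkx2-1 had 19 at 1.68% and 1.79%. Methylation of these genes does not identify a tissue.

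At most CpGs the strands carried nearly the same level. The mean difference over the libraries, whichever strand was higher, was at most 1 percentage point at 76.8% of CpGs and between 1 and 5 points at another 17.9%. Differences of 5 to 10 points were found at 2.16% of 10 to 20 points at 0.553%, of 20 to 50 points at 0.837% (2781 CpGs) and above 50 points at 1.76% (5842). In steps of 10 points the counts fell from 1839 CpGs at 10 to 20 points to 936 at 20 to 30 and 697 at 50 to 60, and rose again to 1621 at 80 to 90 and 1842 at 90 to 100. The threshold of 20 points thus marks no gap, and the largest differences form a second peak. On average over CpGs, F minus R was 0.00224 points, and it stayed between -0.0130 and 0.0133 points in each library, so neither strand read higher as a whole. Over 20 points in no library were 300383 CpGs (90.4%), and over 20 points in all 15 libraries, always with the same strand higher, were 7245 (2.18%). Of the 24751 in between, 13592 passed 20 points in 1 library only. The means just inside and just outside the threshold were 20.0093 and 19.9888 points.

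**Figure D1:**
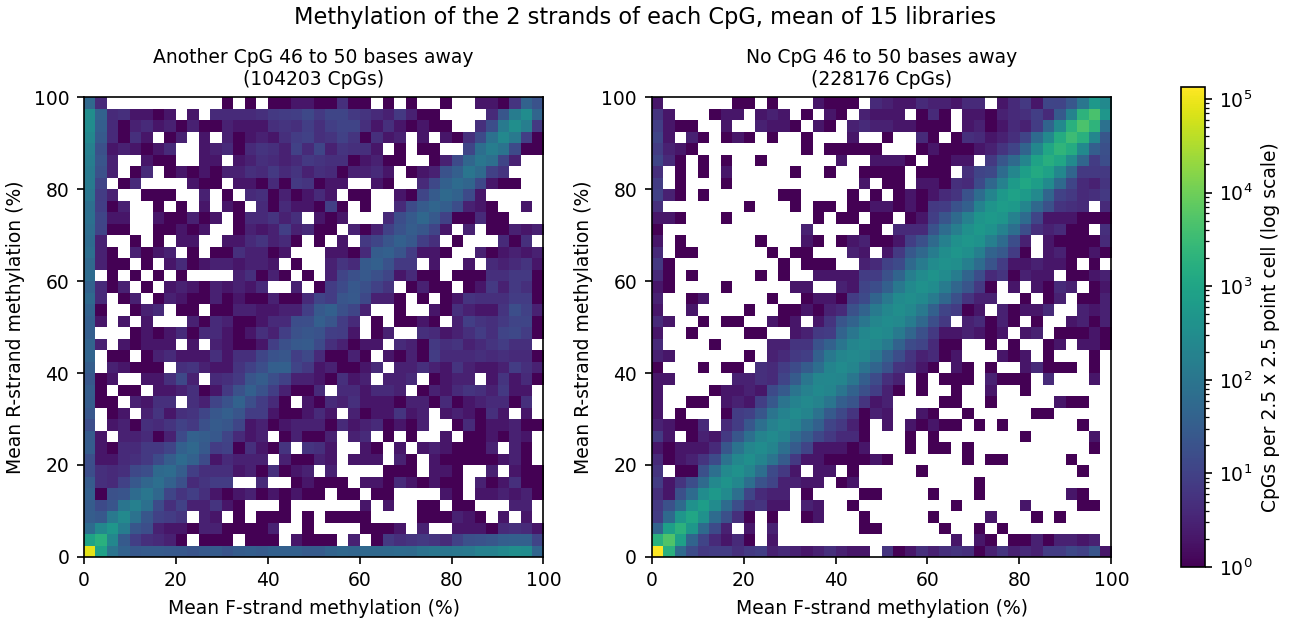
Mean F-strand against mean R-strand methylation in percent over 15 libraries for 104203 CpGs with another both-strand CpG 46 to 50 bases away (left panel) and 228176 without one (right panel), coloured by the number of CpGs per cell on a log scale. Both panels show a band on the diagonal, and the left panel has 2 further bands along the axes, where 1 strand is near 0 and the other takes any level up to 100%.

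The F minus R difference was tested per CpG with limma over the 15 libraries, and a CpG was called where the Benjamini-Hochberg adjusted p was under 0.05 and the mean difference over 20 points. CpGs with the same difference in every library (such as 0) could not be tested. Of 316869 CpGs tested, 8623 were called (2.72%), 4298 with F higher (1.36%) and 4325 with R higher (1.36%). The sign was the same in every library at 8530 of them. Those above 50 points were close to all or none. The higher strand had a median level of 88.1% and the lower one of 1.37%, and the lower strand was under 5% at 5211 of the 5842 (89.2%). The median SD of their difference over libraries was 5.69 points. Without the 2 libraries at odds with their labels 8641 of 313612 were called (2.76%). Leaving out any 1 library gave 8612 to 8640. All 8623 kept their sign within files of 2 decimals and within those of 3, with median differences of 71.4 and 71.8 points. They had been chosen on the same 15 libraries, so the shared sign is a description.

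Calls concentrated in the middle class of level. Among CpGs between 20% and 80%, 8028 were called (18.5%), against 472 under 20% (0.192%) and 123 over 80% (0.282%). This follows in part from the mean itself, since a CpG at 0 on 1 strand and near 100% on the other averages to a middle level. By location, 0.515% of CpGs at gene ends were called, 4.51% in gene bodies and 9.35% between genes. Among CpGs of 20% to 80% with no other both-strand CpG 46 to 50 bases away those shares were 2.05%, 2.17% and 3.32%.

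Single CpGs showed how complete the difference was. With F higher, a CpG in Kdm4d, a histone H3 lysine 9 demethylase gene, near the end away from its promoter (chromosome 9, position 14463440), had the largest mean difference. Its F level was 93.9% at the lowest, 99.2% at the median and 100% at the highest of the 15 libraries, and its R level 0, 0 and 3.06%. The difference was 97.8 points (SE 0.534, limma adjusted p = 1.38e-46). In every library the F strand was nearly all methylated and the R strand nearly all unmethylated, with no overlap. The other 9 CpGs that the naming rule gave on this side ran from 97.4 points at Acnat1, a peroxisomal acyltransferase, to 97.0 at Golga4, a Golgi coiled-coil protein, and included Pex19, which imports peroxisomal membrane proteins, Nbas, Arsk, Arl15, Gtf2e1, Spred2 and AY036118, a multi-copy ribosomal RNA locus where reads cannot be placed with certainty. With R higher, the CpG in Tasp1, the protease that cleaves the methyltransferase KMT2A (chromosome 2, position 139865015), had no methylated read on F in any library. Its R level was 91.4%, 100% and 100% at the lowest, median and highest. The mean difference was -98.5 points (SE 0.706, limma adjusted p = 1.34e-43), at a median coverage of 33 reads on F and 37 on R. The next was Pitpnm2, a phosphatidylinositol transfer protein (chromosome 5, position 124143637), with F at 0, 0 and 2.80% and R at 96.3%, 99.0% and 100%. The 8 others ran from -97.8 points at Map3k5, a kinase of the stress response, to -97.2 at Zfp951, a zinc finger protein, and included Oma1, Hbs1l, Sult2a4, Zfp982, Dennd5a and Fto. Of these 20 CpGs, Golga4 alone had no other both-strand CpG at 46 to 50 bases.

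Called CpGs were spread over many genes, with 2403 of 14990 genes that had a both-strand CpG within 5 kb having at least 1 called. Cdh13, an adhesion molecule of the cadherin family, had 13 of 87 called, 7 with F and 6 with R higher. The immunoglobulin kappa locus Igk had 12 of 74, Sdk2, a synaptic adhesion molecule, 12 of 112, and Wwox, an oxidoreductase gene at a fragile site, 12 of 93. Irf8, a transcription factor of myeloid cells, had 11 of 45, of which 6 had another both-strand CpG 46 to 50 bases away, against 12 of 13 in Cdh13 and all 12 in Wwox.

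The called CpGs came in pairs at a fixed spacing, a pattern seen in the data and then described. Of all both-strand CpGs, 104203 (31.4%) had another 46 to 50 bases away, but 7679 of the called ones did (89.1%). At this spacing 7.37% of CpGs were called and without it 0.414%, and in the middle class of level the shares were 69.9% and 2.45%. The side was fixed too. Of CpGs with F higher, 88.9% had the other CpG to the right and 1.12% to the left, and of CpGs with R higher, 88.4% had it to the left and 0.994% to the right, where 17.4% of all CpGs had one to the right. In 3606 pairs the left CpG was called F higher and the right one R higher, and these pairs held 7212 of the called CpGs (83.6%). On each strand, the CpG at the 5′ end of the pair was thus read as methylated and the one at its 3′ end as unmethylated. Median levels in the called pairs were 86.0% on F and 1.53% on R for the left CpG, and 1.54% on F and 85.7% on R for the right CpG. The high strands of the 2 CpGs lay within 10 points of each other in 69.7% of pairs.

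The spacing had sharp limits. Among pairs in which both CpGs had a mean level over 20%, the left CpG averaged 17.8 points and the right one -18.0 at 46 bases, then 39.97 and -39.2 at 47, 42.9 and -42.1 at 48, 42.8 and -43.2 at 49 and 40.6 and -40.7 at 50. At 51 bases the means were -0.51 and 0.88. Called pairs numbered 179, 784, 997, 873 and 773 from 46 to 50 bases and 0 at 51. Pairs as such numbered 11817 to 13907 at each step from 46 to 50 bases. They were also fewer at 51 bases, at 8653 against 13257 at 50, and those with both levels over 20% numbered 208 against 1300. Over 698764 pairs at 2 to 45 bases there were 58 called pairs, and over 405346 pairs at 51 to 100 bases there were 21. CpGs that lay between the members of a called pair did not share the difference. Of 3102 such both-strand CpGs, 28 were called (0.903%), their median difference was 1.49 points and their mean level 80.3%.

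**Figure D2:**
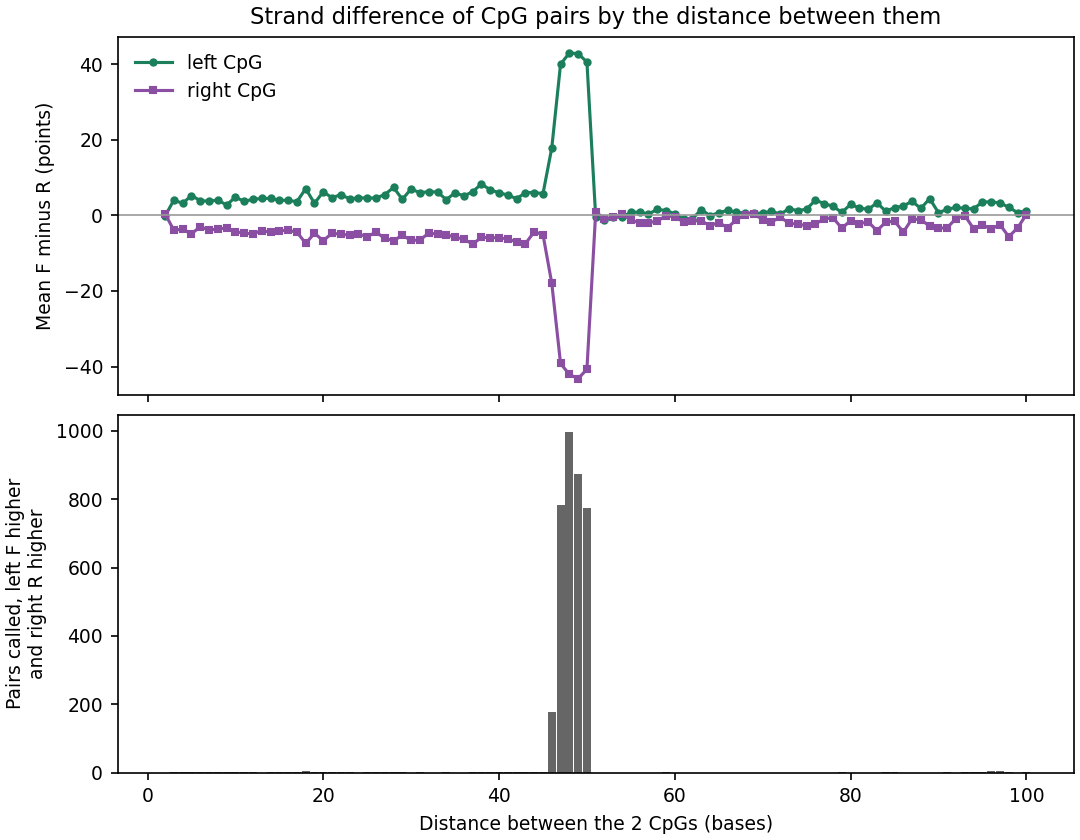
Upper panel, mean F minus R difference in percentage points of the left and the right CpG of pairs with both mean levels over 20%, by the distance between the 2 CpGs in bases; lower panel, number of pairs called F higher at the left and R higher at the right CpG. From 47 to 50 bases the left CpG is near 40 points and the right one near -40, and at 51 bases both are back near 0.

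This pair difference was alike in every mouse. Over the 6496 pairs at 46 to 50 bases with both mean levels over 20%, the left CpG averaged 37.7 to 39.5 points per library and the right one -39.2 to -37.5. In heterozygous libraries the left CpG was at 38.7 points ± 0.553 (SD, n = 8) and in wild-type ones at 38.8 ± 0.366 (SD, n = 7; exact two-sided permutation p = 0.771). The right one was at -38.5 ± 0.521 and -38.6 ± 0.397 (exact two-sided permutation p = 0.626). Over 13 libraries the 2 values of p were 0.904 and 0.981.

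Where the promoter sequence was at hand, the called pairs at 46 to 50 bases were MspI sites. All 60259 placements of both-strand CpGs in the 31396 promoter windows read CG, and 51953 CpGs had their neighbouring bases inside a window. Of these 12835 (24.7%) were in CCGG, which reads the same on both strands. The motif CCGG occurs in 53.5% of the windows, and 5.17% hold 2 copies 46 to 50 bases apart. Of promoter CpGs in CCGG 58 were called (0.452%), 50 of them with another both-strand CpG at 46 to 50 bases, and of those outside it 19 were called (0.0486%). A pair was counted as called where the left CpG was called with F higher and the right one with R higher. At 46 to 50 bases, 19 of 747 promoter pairs with both CpGs in CCGG were called, and none of 10239 with at most 1 of them in it. Among the pairs of each kind with both mean levels over 20%, 17 of the 19 with both in CCGG at 46 to 50 bases were called, and in the other 2 only 1 of the CpGs passed. All 19 had F higher at the left and R higher at the right, with means of 53.1 points (13.9 to 92.4) at the left and -64.5 (-92.0 to -10.4) at the right. At the same spacing, none of 62 pairs with at most 1 CpG in CCGG was called, with means of 1.15 and 3.43 points, although 10 held a CpG that was called by itself. At 51 to 79 bases none of 18 pairs with both in CCGG was called this way and 1 was called the opposite way, with means of -1.98 and 1.66. At shorter spacing, from 10 bases upwards, 1 of 14 such pairs was called. The difference thus moved with 2 things together, the cut site at both ends and the spacing. The part of end filling in it was not tested, and sequence outside the promoter windows was not used here.

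The printed pairs carry these values. In Sycp1, a structural protein of the synaptonemal complex in meiosis, the left CpG was at 94.3% at the lowest, 97.2% at the median and 100% at the highest library on F, and at 6.52%, 15.3% and 18.3% on R. Its right CpG was at 0, 1.03% and 9.80% on F and at 88.7%, 95.5% and 98.7% on R. The strands did not overlap in any library, the differences were 83.3 points (SE 1.23) and -92.0 (SE 1.03), and the 6 both-strand CpGs between the sites differed by -1.07 to 3.66 points. In Ttn, the giant protein of the sarcomere, which has no both-strand CpG between the sites, the left CpG was at 76.7% ± 7.52 on F and 0.394% ± 0.544 on R and the right one at 2.78% ± 5.17 and 80.9% ± 5.65 (SD, n = 15). In Acrbp, an acrosomal protein of sperm, the left CpG was at 39.0% on F and 1.43% on R and the right one at 1.03% and 69.6%. The low strand was not always near 0. In Naa11, an N-terminal acetyltransferase, the left CpG was at 94.2% ± 3.74 on F and 48.8% ± 6.96 on R, in Ccdc152, a coiled-coil protein, at 89.3% ± 5.65 and 58.2% ± 7.06, and in Kcne4, a regulatory subunit of potassium channels, at 69.9% ± 8.91 and 30.5% ± 5.83 (SD, n = 15). Their right CpGs all had F under 3% on average. In Naa11 and Ccdc152 the left CpG was covered more deeply on R than on F, with a median of 284 against 84 reads and 257 against 100. All 12 of these CpGs were called.

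The comparison sequences did not show it. In Hormad1, a protein of the meiotic chromosome axis, with MspI sites 57 bases apart, F and R were at 94.0% and 95.0% at the left and at 89.9% and 90.3% at the right CpG. In Ddx4, a germ cell RNA helicase, with sites 52 bases apart, they were at 82.2% and 83.3% and at 62.8% and 64.3%. In Fgf6, a fibroblast growth factor, with sites 34 bases apart, they were at 61.4% and 60.4% and at 84.6% and 84.8%. In Hsf5, a heat shock factor family member, whose CpGs are 47 bases apart but not both in CCGG, they were at 85.3% and 85.6% and at 95.1% and 93.9%. At each of these 8 CpGs the mean strand difference was smaller than the SD of the level over libraries on either strand.

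**Figure D3:**
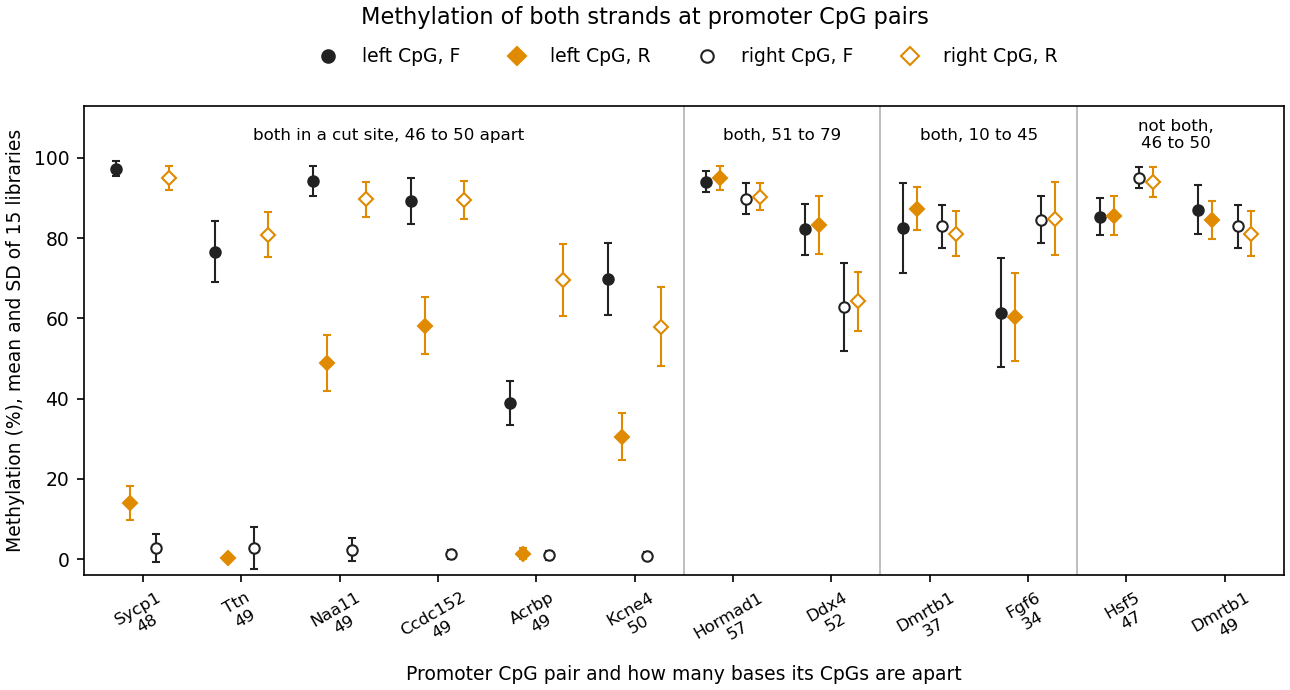
Mean methylation in percent with SD over 15 libraries for the F strand (circles) and R strand (diamonds) of the left (filled) and right (open) CpG of 12 promoter pairs, named with the bases between their CpGs. In the 6 pairs of MspI sites at 46 to 50 bases the left R and right F cytosines fall below their partners, to under 3% at every right F, and in the 6 other pairs both strands lie together.

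Away from this spacing 944 CpGs were called, 0.414% of 228176. They were read less evenly. The median of the smaller strand coverage was 65.5 reads, against 122 for all both-strand CpGs and 109 for called CpGs at the spacing. In 44.0% of them 1 strand had over 2 times the coverage of the other, against 14.9% of all and 16.1%. For 130 of them (13.8%) the next of the 944 on either side lay within 50 bases and had the same sign. Calls at the spacing were not counted in this. Among CpGs of 20% to 80% off the spacing, the share over 20 points per library fell with coverage, from 26.5% at 10 to 30 reads on the shallower strand through 17.0%, 9.83% and 4.45% to 1.76% at 150 reads or more. Over the whole class, CpGs at the spacing included, there was no steady fall, with 27.8%, 24.9%, 26.7%, 29.1% and 6.33%. For the CpGs of this class off the spacing, the root mean square difference fell from 23.0 to 8.39 points between lowest and highest coverage. Counting error alone gives an SD of 11.1 and 4.89 points there. Counting error was computed with every read taken as separate. Whether reads were copies of the same molecule was not tested, so these figures cover counting error only.

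Imprinted genes are known for CpGs methylated on 1 parental copy, and averaged over such a gene the strands were mostly close to each other. Of 28 genes listed, 25 had both-strand CpGs, 499 in all, of which 51.7% were between 20% and 80%, against 13.1% of all CpGs. In the paternally expressed Plagl1, a zinc finger regulator of growth, 19 CpGs were at 39.2% ± 3.71 on F and 37.8% ± 4.31 on R, and in Zrsr1, a splicing factor gene, 25 were at 40.01% ± 2.90 and 38.2% ± 3.22 (SD, n = 15). Single CpGs could still differ, and 2 of the 25 in Zrsr1 were called, the wider at 40.8 points. Igf2r, the receptor that clears insulin-like growth factor 2, had 13 at 31.8% and 33.1%, 1 of them called at -32.6 points, Gnas, a G protein subunit gene, 14 at 39.3% and 41.1%, and Meg3, a maternally expressed long RNA, 4 at 47.4% and 47.7%. Kcnq1ot1, an antisense RNA that silences its cluster, had 2 at 40.7% and 39.7%, and Peg3, a zinc finger gene, 3 at 44.2% and 40.5%. H19, whose upstream region CTCF binds on the maternal copy, had 3 at 47.3% ± 6.41 on F and 55.4% ± 4.50 on R. Strands were also further apart in Nnat, with 9 at 50.6% and 45.6%, and Peg13, with 3 at 37.4% and 43.3%. Some listed genes were nearly unmethylated, such as Dlk1, with 25 at 2.42% and 3.03%, and Grb10, with 29 at 2.37% and 2.30%. Of the 499 CpGs 20 were called (4.01%, 14 of them at the 46 to 50 base spacing), where 2.59% of all both-strand CpGs were, and of those between 20% and 80% 6.59% were, where the share was 18.5% of all CpGs of that class. The widest was in Inpp5f, a phosphoinositide phosphatase gene, at 94.7 points.

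The other gene lists are read against the same 2.59%. Homeobox genes of the Hox clusters had 1047 both-strand CpGs with 3 called (0.287%), and clustered protocadherins, neuronal adhesion molecules whose promoters CTCF binds, had 106 at 44.3% on F and 44.6% on R with 2 called (1.89%). In the class of 20% to 80%, 1 of 77 Hox CpGs (1.30%) and 2 of 52 protocadherin CpGs (3.85%) were called, against 18.5% of all. The 46 to 50 base spacing held 28.1% of the Hox and 9.43% of the protocadherin CpGs, against 31.4% of all. Genes of methylation, demethylation and chromatin looping had 448 with 8 called (1.79%), which is near the share of all CpGs. All 8 lay at the 46 to 50 base spacing, which held 37.1% of these 448, against 31.4% of all. In their class of 20% to 80%, 7 of 26 were called (26.9%, against 18.5% of all), and the widest difference was -92.8 points in Dnmt3b, a de novo methyltransferase. In Dnmt1, 5 CpGs were at 89.5% on F and 87.8% on R, in Uhrf1 13 were at 18.5% and 19.4%, and in Ctcf 52 were at 1.69% and 1.60%, with none called. The lung genes had 130 CpGs and none called.

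Strand agreement was then compared by genotype, since the study asked about the stability of methylation. The share of CpGs over 20 points ran from 2.98% to 3.77% by library. The 8 heterozygous libraries averaged 3.40% ± 0.162 (SD) and the 7 wild-type ones 3.28% ± 0.261 (SD), and the ranges overlapped (exact two-sided permutation p = 0.318, Benjamini-Hochberg adjusted over 4 measures 0.636). The mean absolute difference was 3.84 ± 0.0856 against 3.75 ± 0.140 points (exact permutation p = 0.179, adjusted 0.636). Pearson r between strands, across CpGs within a library, was 0.936 against 0.935 (exact permutation p of the genotype difference = 0.880, adjusted 0.944), and the strand variance beyond counting error was 140 against 140 squared points (exact permutation p = 0.944, adjusted 0.944). Without the 2 libraries at odds with their labels the share was 3.36% against 3.29% (exact permutation p = 0.580) and no measure passed. Within files whose percentages have 2 decimals the share was 3.38% against 3.15% (exact permutation p = 0.0476, adjusted 0.190), and within files of 3 decimals it was 3.41% against 3.598% (exact permutation p = 0.400), the other way. Both wild-type libraries of the latter kind were female.

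No level class differed by genotype beyond the spread between mice. Under 20%, heterozygous libraries had 0.267% of CpGs over 20 points and wild-type ones 0.236% (exact permutation p = 0.186). From 20% to 80% these were 23.0% and 22.5% (exact permutation p = 0.403), and over 80% 1.46% and 1.29% (exact permutation p = 0.468), each 0.468 after adjustment over the 3 classes. Without CpGs at the 46 to 50 base spacing, a set chosen after the data were seen, the share of all CpGs was 1.54% against 1.38% and that of the middle class 8.29% against 7.52%, with r at 0.985 and 0.986.

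**Figure D4:**
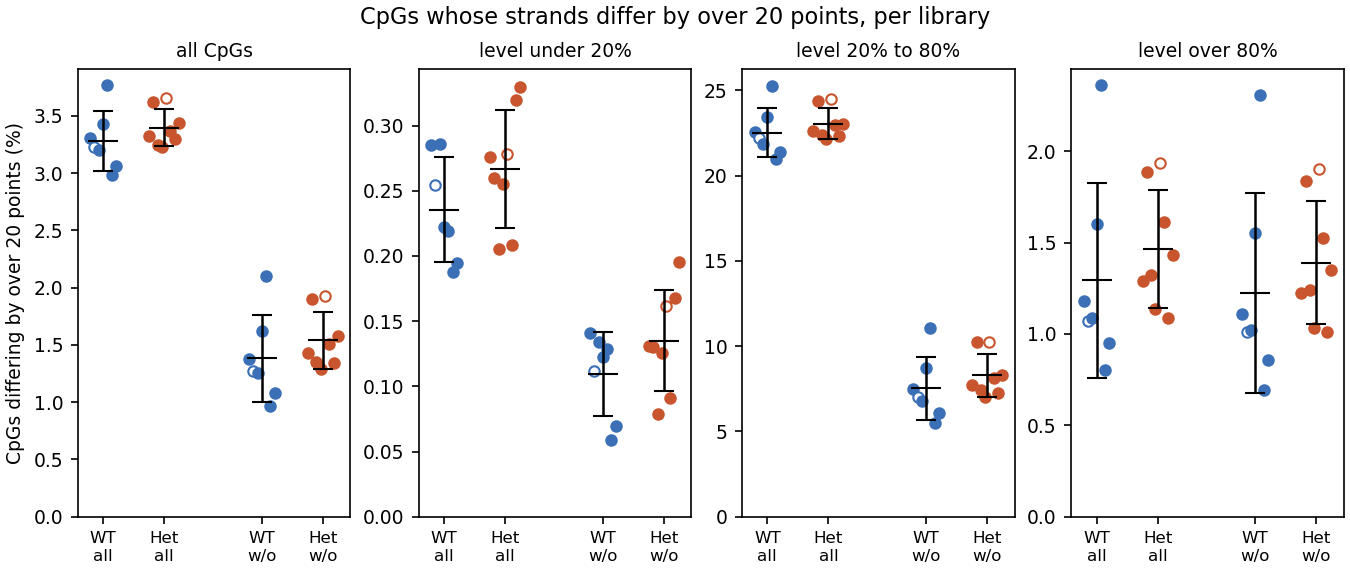
Percent of both-strand CpGs whose strands differ by over 20 points in each library, for all CpGs and by class of mean level, for all CpGs of the class (all) and without those with another both-strand CpG 46 to 50 bases away (w/o), with mean and SD, in labelled wild-type (blue, WT) and heterozygous (red, Het) mice; open symbols are the 2 libraries at odds with their labels. The genotypes overlap in every panel, and in the middle class the share falls from 23.0% and 22.5% to 8.29% and 7.52% without the spaced CpGs.

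The spread between mice that both strands share was taken from the covariance of F and R levels, in which counting error that is separate on each strand averages out. Error shared by both strands, as where their reads come from the same DNA fragments, would stay in it and was not tested. Per strand, the variance between mice averaged 13.9 squared points for heterozygous mice and 12.8 for wild-type ones, of which counting error made up 4.78 and 4.10 and spread shared by the strands 3.54 (25.5%) and 3.36 (26.2%). The remainder, 5.57 and 5.34, was the largest of these parts over all CpGs. It was neither shared nor counting error as computed with every read taken as separate. The difference in shared spread between genotypes did not pass (exact permutation p = 0.828, adjusted over 4 values 0.871). By class it was 0.612 against 0.569 under 20%, 20.5 against 19.7 from 20% to 80% and 3.12 against 2.75 over 80%, adjusted 0.871 each. Without the 2 libraries at odds with their labels it was 3.72 against 3.27 over all CpGs (exact permutation p = 0.602). Strand differences themselves recurred across genotypes. Of 8644 CpGs over 20 points in the wild-type mean, 97.5% were over 20 points the same way in heterozygous mice, with medians of 71.2 and 71.3 points. Of 8639 chosen in heterozygous mice, 97.6% recurred in wild-type ones.

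No CpG had a strand difference that depended on genotype over all libraries. With limma 0 of 316869 passed (0%), with 11333 at an unadjusted p under 0.05, and 0 passed with the quasi-binomial regression (17173 unadjusted), on the arcsine scale or without moderation. Over 13 libraries 0 of 313612 passed (0%), with 12327 unadjusted. Of the CpGs with the smallest p over 13 libraries, the first was in Prkd2, a protein kinase D family member (chromosome 7, position 16858514). There F was at 44.4%, 50.3% and 54.1% (lowest, median and highest) in heterozygous and at 8.45%, 24.4% and 30% in wild-type libraries, without overlap, and R at 96.9%, 99.4% and 100% and at 85.1%, 96.9% and 100%. The heterozygous minus wild-type difference of the strand difference was 23.7 points, with a limma adjusted p of 0.0841. The others named by the rule were in Nacad, Gli1 and Theg and beside Rn18s-rs5, an 18S ribosomal RNA locus with many copies.

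Reads of both strands were also summed to compare the level by genotype, with quasi-binomial regression. With all 15 libraries 0 of 316876 CpGs passed (0%), with 28877 at an unadjusted p under 0.05, and limma on arcsine levels passed 184. Without the 2 libraries at odds with their labels 264 of 313618 passed (0.0842%), 231 higher (0.0737%) and 33 lower (0.0105%) in heterozygous mice. The unmoderated fit passed 46 and limma 674. Leaving out 1 more library gave 134 (heterozygous replicate 8) to 322 (heterozygous replicate 3), and counts also fell by over 1.5 times without wild-type replicates 4 (152), 5 (167), 6 (148) or 7 (167) or heterozygous replicates 2 (168) or 7 (150).

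Each strand on its own gave the same direction. Fitted alone over 13 libraries, F cytosines gave 119 calls (0.0416%), of which 107 were higher (0.0374%) and 12 lower (0.00419%). R cytosines gave 99 (0.0346%), of which 91 were higher (0.0318%) and 8 lower (0.0028%), and 49 CpGs were called by both. At all 264 CpGs called from the sum F and R moved the same way, with median differences of 16.0 points on F and 15.9 on R, though 130 passed on neither strand alone. For a strand difference 4 of them were called (1.52%, against 2.59% of all both-strand CpGs), and 50 had another both-strand CpG at 46 to 50 bases (18.9%, against 31.4% of all). They lay in or near 127 genes, 58 at gene ends, 184 in gene bodies and 22 between genes, and 176 had a middle level. Of all both-strand CpGs 59.5% lay at gene ends, 31.1% in gene bodies and 9.48% between genes, and 13.1% had a middle level. All 264 had been chosen on the same 13 libraries, so the shared direction is a description. The direction held for all 264 within files of 2 decimals (4 against 4 libraries, median difference 14.9 points) and within files of 3 decimals (3 against 2 libraries, 17.6 points).

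Carmil2, a regulator of actin capping that neighbours Ctcf on chromosome 8, held 23 of the 264. The gene was named from earlier results of these data. Its 26 both-strand CpGs lie at chromosome 8, 105684208 to 105695583, and none was called for a strand difference. On F the 7 other heterozygous libraries had a mean level of 40.04% at the lowest, 49.3% at the median and 52.7% at the highest, and the 6 other wild-type ones 12.5%, 15.0% and 23.3%. On R the values were 43.6%, 52.6% and 55.6% against 12.0%, 17.4% and 28.7%. The groups did not overlap on either strand. Wild-type replicate 2 stood with the heterozygous libraries, at 51.5% on F and 52.5% on R, and heterozygous replicate 5 with the wild-type ones, at 21.2% and 20.4%. With all 15 libraries as labelled the means were 43.8% against 22.0% on F and 46.7% against 24.4% on R, and none of the 26 passed.

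**Figure D5:**
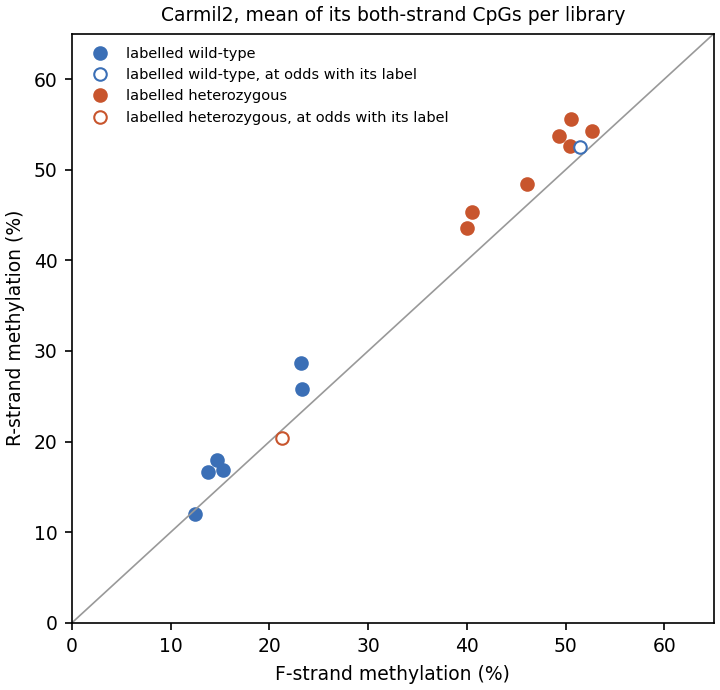
Mean methylation in percent of the 26 both-strand CpGs of Carmil2 on the R strand against the F strand, 1 point per library, with the diagonal as a line; blue is labelled wild-type, red labelled heterozygous, and open symbols are the 2 libraries at odds with their labels. Filled wild-type points lie between 12.5% and 23.3% on F, filled heterozygous points between 40.04% and 52.7%, and each open point lies among those of the other label.

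The genotype differences of F and R lay a median of 2.495 points apart over the 264 CpGs, and over 5 points apart at 55 of them. In Camk2g, a calcium/calmodulin-dependent kinase (chromosome 14, position 20737374), F was at 50.8%, 59.0% and 64.6% (lowest, median and highest) in heterozygous and 22.3%, 28.5% and 33.2% in wild-type libraries. Its R was at 48.5%, 58.3% and 64.0% against 18.0%, 28.3% and 33.0% (quasi-binomial adjusted p = 9.66e-05). The genotypes did not overlap on either strand. The CpG 4909 bases from Neat1, a long RNA that scaffolds nuclear paraspeckles (chromosome 19, position 5819799), was at 37.9% ± 5.81 against 7.19% ± 2.77 on F and 33.5% ± 6.15 against 6.65% ± 1.46 on R (SD, n = 7 and n = 6; quasi-binomial adjusted p = 9.66e-05). A second CpG of Prkd2 (position 16858551) was at 60.4% against 26.9% on F and 59.3% against 30.4% on R. Pdzd7, a hair cell scaffold protein, had 82.0% against 59.5% and 78.9% against 65.9%, a wider difference on F than on R, and Pkd1l2, a polycystin family member, 84.5% against 61.6% and 87.1% against 63.3%. Further genes with several such CpGs, all higher, were F12, coagulation factor XII, with 8 (13.1% against 2.38% on F, 13.7% against 2.78% on R), Npcd with 8 (84.0% against 63.0%, 84.3% against 64.2%) and Antxr2, an anthrax toxin receptor, with 7 (43.4% against 28.5%, 42.8% against 26.9%). These levels average only the CpGs that passed on the same 13 libraries, not all both-strand CpGs of each gene.

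On the lower side were Sp7, a transcription factor of bone formation, with 5 CpGs at 27.3% against 36.4% on F and 25.7% against 39.6% on R, and single CpGs in Hoxb3, a homeobox gene, Pml, the scaffold of nuclear bodies, Gabbr2, a GABA-B receptor subunit, and Myh3, an embryonic myosin. All 23 both-strand CpGs of Sp7 averaged 14.1% against 16.4% on F and 12.7% against 17.0% on R over 13 libraries. The 10 Hoxb3 CpGs of 20% to 80% averaged higher in heterozygous mice over 15 libraries as labelled. They were at 35.1% against 25.4% on F and 32.2% against 23.2% on R. The Pml CpG (chromosome 9, position 58220504) was at 69.6% ± 2.26 against 83.9% ± 5.29 on F and 66.2% ± 3.94 against 79.7% ± 4.54 on R (SD, n = 7 and n = 6; quasi-binomial adjusted p = 0.00327). The Myh3 call was lost without wild-type replicate 3 (quasi-binomial adjusted p = 0.0570). With both libraries at odds put back, none of the 10 CpGs named here passed (quasi-binomial adjusted p from 0.287 to 0.503). Of the other genes named from earlier results, B3gnt6 had 15 both-strand CpGs near 1%, Mest 2 near 60% and Art5 13, 2 of them called for a strand difference, and none passed by genotype.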

How the data were processed

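The files are 15 tables, 1 per library, of cytosines in CpGs by strand. The submitters' processing notes name Bismark, methylKit and the mm10 build, without versions. Per the file headers, the authors deposited coverage as a count of reads, listed only at 10 or more, and the percent of reads that read C or T. Whole read counts were recovered from every percent value. Percentages have 2 decimals in 9 files and 3 in 6 (wild-type replicates 4 and 5, heterozygous replicates 1, 4, 5 and 8). F and R cytosines 1 base apart were joined, so that each CpG kept 2 levels.

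The strand difference in percentage points was tested with limma 3.58.1 in R 4.3.3 (genotype and sex coded to sum to 0, variance trend on counting variance), and levels by genotype with quasi-binomial regression of counts with sex, dispersion moderated and at least 1. CpGs with no variation were left out of the tests. Values per library were compared by exact permutation over 6435 splits of 15 libraries or 1716 of 13. Adjustment is Benjamini-Hochberg over all CpGs tested, threshold 0.05. Tests recovered planted changes on simulated data, in which both strands had the same spread between animals and otherwise only counting error. The real libraries also had a remainder beyond both as computed here, so the simulation does not show how sensitive the strand tests were here. Python 3.11.15, numpy 2.4.6, pandas 2.3.3 and matplotlib 3.10.9 were also used.

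Genes and their positions come from RefSeq's list for this build, which has no exons. Promoter letters are RefSeq's. Named CpGs are the 10 of largest mean difference on each side with 1 sign in every library, at most 1 per gene within 5 kb, the 5 genes with the most calls, and for genotype the 5 higher, 5 lower and 5 interaction CpGs of smallest p, with and without the 2 libraries at odds with their labels, plus genes from earlier results. Members, lists and tests were chosen with earlier results of these data known. Replicates are numbered in accession order, which pairs no animals. Alternatives were the coverage minimum, thresholds, classes, scale, moderation, tool, strand, kind of file and leaving out libraries.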

Additional observations from a re-analysis of the deposited data

Results flagged for a closer look

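Single libraries stood apart from the rest of their group at 25 of 88 groups of values examined, by the gap to the nearest library as a share of the group's range (Dixon's test), where chance gives about 1 in 20. The CpGs of the genotype comparison had been chosen on the other 13 libraries, so a flag of wild-type replicate 2 or heterozygous replicate 5 there is no independent observation. Wild-type replicate 2 stood apart in Carmil2 on F (51.5%, others 12.5% to 23.3%) and R (52.5%, others 12.0% to 28.7%), in Camk2g on F (62.8%) and R (54.5%), in Neat1 on F (44.8%) and R (26.6%), in Prkd2 on F (73.2%) and R (67.7%), in Pdzd7 on F (81.4%), and, below the others, in Sp7 on R (30.1%, others 40.4% to 47.6%) and Myh3 on R (28.9%, others 61.4% to 74.5%). Heterozygous replicate 5 stood apart in Carmil2 on F (21.2%, others 40.04% to 52.7%) and R (20.4%, others 43.6% to 55.6%), in Camk2g on F (28.1%) and R (28.5%), in Neat1 on F (6%, others 31.5% to 49.0%), in Prkd2 on F (31.1%) and R (29.6%), in Pdzd7 on F (59.6%) and R (63.2%), and, above the others, in Hoxb3 on F (13.5%) and R (31.1%) and Pml on F (84.5%). In 2 cases another library stood apart. Wild-type replicate 3 had an F minus R difference of 14.8 points at the left CpG of Ccdc152, against 30.3 to 42.0 in the others of that label, and wild-type replicate 7 had 66.0% on R in Gabbr2, where the others had 37.5% to 47.8%.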

How the results depend on the processing

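The count of CpGs with a strand difference was 7687 to 10271 under a threshold of 30 or 10 points, the arcsine scale, no moderation, quasi-binomial regression, a coverage minimum of 20 or an upper limit of coverage. It was 4995 at a coverage of at least 50, where fewer CpGs were left, 944 without CpGs that have another 46 to 50 bases away and 954 without these and without both libraries at odds with their labels. Among 260 alternatives for the values per library none passed (lowest adjusted p 0.0714), and 32 changed sign. In points or percent, heterozygous minus wild-type, those that did so other than by leaving out 1 library were the share of CpGs over 80% at a coverage of at least 50 (-0.0122), r within files of 2 decimals (-0.000241), and within files of 3 decimals the share (-0.187), the mean absolute difference (-0.0133), the variance (0.642), the share of the middle class (-1.26) and that of the class over 80% (-0.547). The mean absolute difference weighted by coverage was -0.165. Without the spaced CpGs r differed by -0.000550 and the variance by 0.166, and r by -0.000228 over 13 libraries. Leaving out each replicate in turn, the share differed by 0.0641 to 0.195, the mean absolute difference by 0.0519 to 0.120, r by -0.000360 to 0.000387, the variance by -0.877 to 0.982, and the spread shared by strands by -0.115 to 0.718 over all CpGs, -0.0290 to 0.148 under 20%, -1.11 to 3.77 from 20% to 80% and 0.0857 to 0.895 over 80%. Strand differences by genotype numbered 0 to 3 over 15 libraries with 1 left out (3 each without heterozygous replicates 4 and 5) and 0 to 7 over 13 (7 without heterozygous replicate 4, 1 each without wild-type replicates 1 and 6). Level differences over 15 libraries numbered 0 to 7 (7 without wild-type replicate 2), 184 with limma on arcsine levels, 264 without both libraries at odds and 233 without these and the spaced CpGs; over 13 libraries they numbered 119 on F alone, 99 on R alone, 674 with limma, 46 unmoderated and 134 to 322 leaving out each replicate in turn. For the 30 named CpGs that were called, 505 of 516 alternatives kept the call and 11 lost it, and for the 20 that were not, 349 of 363 gave none and 14 gave one. Direction changed in 0 of these. No paired analysis was possible because replicates are numbered in accession order, which pairs no animals. Strand differences were wider at low coverage among CpGs of 20% to 80% off the spacing, and 15 libraries, of which 2 are at odds with their labels, limit every comparison by genotype.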

Other observations

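Strand differences varied little between mice at most CpGs. The SD of F minus R over the 15 libraries had a median of 1.13 points over all both-strand CpGs and of 8.43 points in the class of 20% to 80%, and it was above 20 points at 250 CpGs. Of these, 1 split the libraries into clusters more than 30 points apart with at least 3 libraries in each, and it was singled out after its values were seen. It lies in Pkhd1, a ciliary protein of kidney and bile duct (chromosome 1, position 20486969). Its F level was 88.5% to 100% in every library, with a median of 97.9%. Its R level was 43.4% to 52.6% (median 46.0%) in the 7 other libraries labelled female and 90.6% to 97.7% (median 94.0%) in the 6 other libraries labelled male. Wild-type replicate 2, labelled male, had 52.2%, and heterozygous replicate 5, labelled female, 91.0%. No test was made of this CpG.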
